A study of Arabidopsis thaliana with 12 samples.

Results

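In all, 5 genes had almost no reads in wild type Arabidopsis thaliana seeds and were read in every library of the mutant lines ago4-3 and ago4-2. They were AT2G21100, the pair AT3G28290 and AT3G28300, AT2G11410 and AT4G01975, 5 of the 17751 genes measured in all libraries. They were picked from an earlier look at the same counts, because they were near silent in the wild type Col-0 and present in both mutants, so their height over Col-0 is described here and not tested. The choice used no numeric threshold. The series measured polyadenylated RNA of germinating seeds in 6 groups of 2 libraries each, with totals of 18168653 to 47517007 counts.

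The groups were ago4-3 on 100 mM NaCl, ago4-3 on control medium, ago4-2 on NaCl, ago4-2 on control medium, and Col-0, which carries neither allele, on NaCl and on control medium. The control medium was MS at its usual strength, and the salt was added to it. All seeds germinated at 21 °C under 16 h of light and 8 h of dark. The labels name the mutant lines only, and of the lesion in AGO4, the age of the seedlings and the seed lots behind a library the sources used here give nothing. The p-values below therefore rest on the spread between libraries of a group, which may be technical. That spread was estimated over all 6 groups together, with information shared across genes.

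AGO4 is an Argonaute protein of the RNA-directed DNA methylation pathway. RNA polymerase IV, RDR2 and DCL3 make short RNAs from transposons and repeats, AGO4 binds these RNAs and pairs them with transcripts of RNA polymerase V, and the methyltransferase DRM2 then methylates cytosines at the matching DNA. In plants that lack the pathway, some transposons, pseudogenes and repeat-flanked genes are transcribed that are silent in the wild type. The counts hold no methylation or short RNA data.

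The transcript of AGO4 itself (AT2G27040; chromosome 2, 11536502 to 11542391 on the minus strand, RefSeq build TAIR10.1) differed between the mutant lines. Levels are given as CPM, the count scaled to a common library size after TMM normalisation. AGO4 had 0.639 ± 0.127 CPM in ago4-3 on NaCl, 37.1 ± 2.48 CPM in ago4-2 on NaCl and 42.9 ± 5.64 CPM in Col-0 on NaCl (SD, n = 2 each). On control medium it had 1.25 ± 0.136 CPM in ago4-3, 44.8 ± 6.13 CPM in ago4-2 and 45.7 ± 1.54 CPM in Col-0. The 5 genes were thus read in a line with little AGO4 transcript and in a line with an AGO4 transcript near the Col-0 level. The 4 seed storage and maturation genes (CRA1, CRC, OLEO1 and EM6), 2 genes of green tissue (LHCB1.3 and RBCS1A) and 2 root genes (SCR and SHR) were all read in every group.

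The 5 genes are of unlike kinds. AT2G21100 is a protein-coding gene of the dirigent-like family, whose characterised members steer the coupling of phenolic radicals into lignans and lignin-related polymers. RefSeq places it on chromosome 2, 9048131 to 9049404 on the minus strand, with 4 exons. AT3G28290 (chromosome 3, 10547441 to 10549401, plus strand) and AT3G28300 (chromosome 3, 10565674 to 10567634, plus strand) are both named AT14A, encode predicted transmembrane proteins with a DUF677 domain, and are noted for sequence similarity to animal integrins, the receptors that tie the extracellular matrix to the cytoskeleton. AT2G11410 (chromosome 2, 4543932 to 4547916, plus strand) and AT4G01975 (chromosome 4, 858636 to 862475, minus strand) are annotated as pseudogenes with a single exon.

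The AT14A pair is a perfect duplication. The 1961 bases of AT3G28290 and of AT3G28300 had 0 mismatches, and the identical run reached 479 bases before the genes and 3887 bases after them, 6327 bases in all, at a distance of 18233 bases between the starts. No stretch of 50 or 100 bases of either gene (0% of them) was found only once in the genome, so a read cannot be assigned to either copy and the pair is treated as 1 measurement, the sum of both. The 250 bases before each start are shown because they carry the same letters in both copies, at chr3:10547191-10547440 and chr3:10565424-10565673 on the plus strand, and those of AT2G21100 because it is the other protein-coding gene here, at chr2:9049405-9049654 on the minus strand. Sequences are from RefSeq TAIR10.1, 5′ to 3′, and capitals mark the motif matches named below.
AT3G28290 and AT3G28300: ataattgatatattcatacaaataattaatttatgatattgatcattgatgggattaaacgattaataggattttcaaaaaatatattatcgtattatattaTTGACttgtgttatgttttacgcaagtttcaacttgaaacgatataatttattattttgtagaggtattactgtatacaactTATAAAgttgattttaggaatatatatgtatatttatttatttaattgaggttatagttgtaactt
AT2G21100: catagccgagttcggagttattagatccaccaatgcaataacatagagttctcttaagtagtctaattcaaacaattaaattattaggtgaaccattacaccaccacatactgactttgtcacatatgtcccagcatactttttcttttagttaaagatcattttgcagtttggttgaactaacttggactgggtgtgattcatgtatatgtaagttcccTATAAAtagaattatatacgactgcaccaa

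Both strands of these windows were searched for motifs of stress-responsive plant promoters. The abscisic acid response core ACGTG had 0 matches in either window, against 20.8% of the 37897 gene windows of this length in the genome that held it. The dehydration response elements ACCGAC and GCCGAC also had 0 matches, and 4.4% and 2.6% of windows held them. The W-box core TTGAC, bound by WRKY factors, occurred 1 time in the pair's window, beginning 148 bases before the start, and in 43.9% of all windows. TATAAA occurred at 66 bases before the start of the pair and at 30 bases before that of AT2G21100, and in 44.6% of all windows. A match is a run of letters and not a measured binding site.

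Both pseudogenes belong to repeated sequence, and the pair of stretches shown for each lets a reader see how far a read from it differs from its longest other match in the genome. AT2G11410 had 22 other matches of at least 500 bases at 66.5% to 96.2% identity, the longest of them 2020 bases at 79.9% identity at AT1G43270 on chromosome 1. AT4G01975 had 31 such matches at 66.1% to 91.6% identity, the longest 1560 bases at 82.3% at AT3G15310 on chromosome 3. Capitals mark the bases that differ between the lines of each couple, 11 of 80 for AT2G11410 (chr2:4545504-4545583, plus strand, and chr1:16321581-16321660, plus strand) and 14 of 80 for AT4G01975 (chr4:861162-861241, minus strand, and chr3:5152212-5152291, minus strand).
AT2G11410: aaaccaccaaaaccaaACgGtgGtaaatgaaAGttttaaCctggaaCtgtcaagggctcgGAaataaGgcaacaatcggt
AT2G11410 longest other match: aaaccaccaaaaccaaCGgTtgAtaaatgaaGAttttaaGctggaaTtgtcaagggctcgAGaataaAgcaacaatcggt
AT4G01975: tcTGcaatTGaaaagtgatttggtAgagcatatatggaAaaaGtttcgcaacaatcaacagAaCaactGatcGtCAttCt
AT4G01975 longest other match: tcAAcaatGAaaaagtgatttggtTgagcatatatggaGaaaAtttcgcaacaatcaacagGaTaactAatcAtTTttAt

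Of all 50-base stretches of AT2G11410, 96.2% occurred once in the genome, and of those of AT4G01975 98.9%. Over stretches of 100 bases it was 100% of both. AT2G21100 was unique over 100% of its 50-base stretches, although 2 other places matched it over at least 500 bases at 85.7% and 86.2% identity. Reads of at least 50 bases from these 3 genes can therefore mostly be placed in the reference genome, and those of the pair cannot. How reads that match several places were counted is not stated in the sources used here. The labels do not say if strand was used in counting, and antisense transcripts may be included.

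The dirigent-like AT2G21100 was the only one of the 5 with counts in every Col-0 library. Its counts were 466 and 472 in ago4-3 on NaCl, 340 and 262 in ago4-3 on control medium, 1145 and 1664 in ago4-2 on NaCl, and 488 and 730 in ago4-2 on control medium. Col-0 had 2 and 4 counts on NaCl and 10 and 3 on control medium. The lowest mutant library, at 12.1 CPM, stood 63.0 times above the highest Col-0 library, at 0.192 CPM. Every ago4-2 library was above every ago4-3 library.

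As ratios of summed counts over summed library sizes, AT2G21100 was 218-fold higher in ago4-3 than in Col-0 on NaCl (95% counting interval 99.8 to 595) and 74.7-fold higher on control medium (43.3 to 141). For ago4-2 the ratio to Col-0 was 611 on NaCl (281 to 1670) and 159 on control medium (92.6 to 299). Such intervals cover counting error only. In bulk seed RNA, more cells that express a gene and more RNA per cell cannot be told apart.

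The AT14A pair had no count in Col-0 on control medium and the widest range among the mutants. Summed over both copies, the counts were 1900 and 3395 in ago4-3 on NaCl, 288 and 250 in ago4-3 on control medium, 626 and 866 in ago4-2 on NaCl, and 83 and 83 in ago4-2 on control medium. Col-0 had 8 and 6 counts on NaCl and 0 and 0 on control medium, where a count of 0 allows up to 0.0576 and 0.124 CPM (3 counts in a library). Most low counts were even, so a fragment may have given 2 counts, in which case this limit is too low and each "at least" fold below too high. The lowest mutant library had 2.82 CPM and the highest Col-0 library 0.231 CPM, a ratio of 12.2.

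The pair was 527-fold higher in ago4-3 than in Col-0 on NaCl (314 to 965) and at least 128-fold higher on control medium, taken against 3 counts per Col-0 library. In ago4-2 it was 139-fold higher than in Col-0 on NaCl (82.7 to 255) and at least 45.0-fold higher on control medium. The deposited counts listed both copies at nearly equal shares. AT3G28290 held 50.9% and 50.8% of the pair's counts in ago4-3 on NaCl, and 44.8% to 60.2% over all 8 mutant libraries. With each gene's reads unassignable, these shares say how the reads were divided between the rows and not which copy was transcribed.

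**Figure D1:**
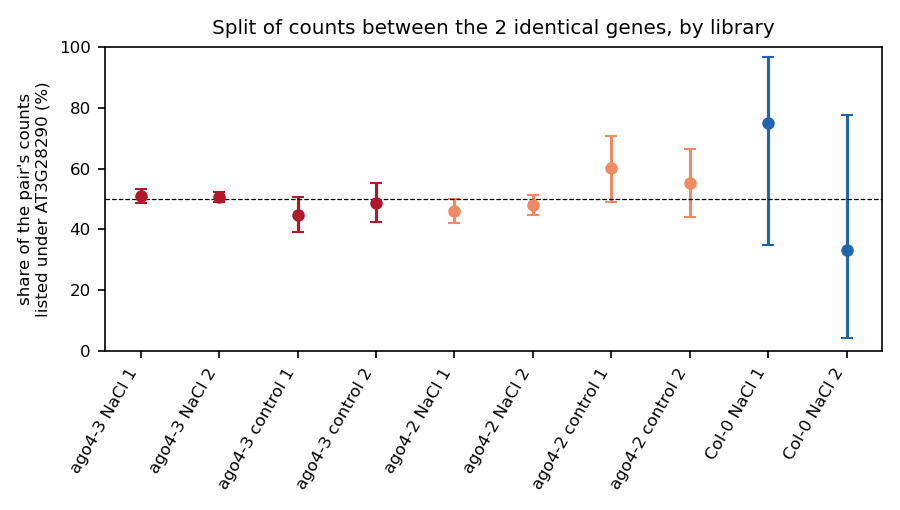
Share of the AT14A pair's counts that the deposited tables list under AT3G28290 (vertical axis, percent) in each library with any count, with exact binomial (Clopper-Pearson) 95% intervals for counting error as bars and 50% as a dashed line. Mutant libraries lie between 44.8% and 60.2%, and the Col-0 libraries on NaCl rest on 8 and 6 counts.

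The pseudogene AT2G11410 was high in ago4-3 and lower in ago4-2. It had 493 and 573 counts in ago4-3 on NaCl, 539 and 430 in ago4-3 on control medium, 76 and 106 in ago4-2 on NaCl, and 45 and 145 in ago4-2 on control medium. In Col-0 the counts were 0 and 2 on NaCl and 0 and 0 on control medium. The lowest ago4-3 library had 19.1 CPM and the highest ago4-2 library 4.92 CPM, so the mutant lines did not overlap. Relative to Col-0, ago4-3 was 743-fold higher on NaCl (205 to 6140, from 2 Col-0 counts) and at least 229-fold higher on control medium. For ago4-2 the ratio was 119 on NaCl (32.4 to 989), and at least 43.1 on control medium.

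The pseudogene AT4G01975 was the lowest and the most even across the mutants. Its counts were 85 and 66 in ago4-3 on NaCl, 73 and 69 in ago4-3 on control medium, 59 and 85 in ago4-2 on NaCl, and 35 and 69 in ago4-2 on control medium. Col-0 had 2 and 2 counts on NaCl and 0 and 0 on control medium. All 8 mutant libraries lay between 2.26 and 4.13 CPM, and both ago4-3 groups overlapped with ago4-2 on NaCl. The ratio to Col-0 was 52.6 for ago4-3 on NaCl (20.1 to 196) and at least 34.1 on control medium, and for ago4-2 it was 47.0 on NaCl (18.0 to 175) and at least 25.3 on control medium.

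**Figure D2:**
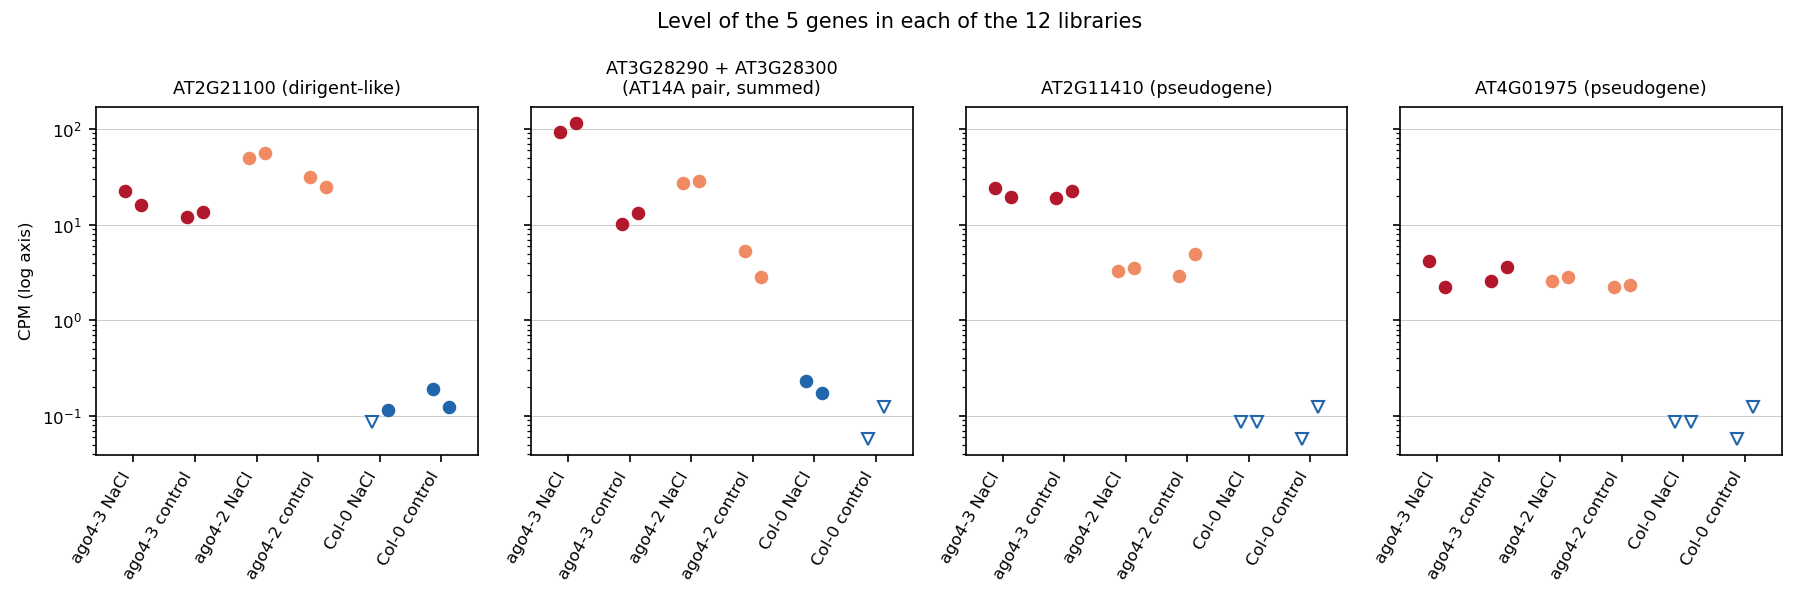
Level in CPM (log axis) of each gene, with the AT14A pair summed, in the 12 libraries by group, 1 point per library; open triangles are libraries under 3 counts, drawn at the CPM of 3 counts. Every mutant library lies above every Col-0 library, and AT2G11410 separates ago4-3 (19.1 CPM and above) from ago4-2 (4.92 CPM and below).

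To set the genes against the rest of the seed transcriptome, the CPM was divided by exon length in kb, and 17560 genes had an annotated length. In these terms AT2G21100 stood above 69.2% of genes in ago4-3 on NaCl and 59.4% on control medium, and above 86.5% in ago4-2 on NaCl and 77.2% on control medium. AT3G28290, which is 1 of the 2 rows of the pair, stood above 80.9% of genes in ago4-3 on NaCl and 24.6% on control medium, and above 47.3% in ago4-2 on NaCl and 10.1% on control medium. AT2G11410 was above 37.4% and 36.3% of genes in ago4-3 on NaCl and control medium, and above 5.4% and 5.9% in ago4-2. AT4G01975 stayed among the lowest, above 2.6% to 4.9% of genes in the mutant groups. In Col-0 none of the 5 stood above more than 0.2% of genes.

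Salt was not part of the choice of the genes, apart from their low level in Col-0, and its effect within each mutant was tested with edgeR's quasi-likelihood test on all 17751 genes, with Benjamini-Hochberg adjustment and a threshold of 0.05. Of the 5 genes, 3 were called higher on NaCl than on control medium in ago4-3, where 12.6% of all genes were called higher, 10.4% lower and 23.0% in either direction. The same number was called higher in ago4-2, where 17.4% of all genes were called higher, 17.8% lower and 35.1% in either direction. They were AT2G21100 and both copies of the pair, which are 1 measurement.

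The AT14A pair had 104 ± 17.1 CPM on NaCl and 11.7 ± 2.06 CPM on control medium in ago4-3, and 28.0 ± 1.27 CPM on NaCl and 4.09 ± 1.80 CPM on control medium in ago4-2 (SD, n = 2 each). No library on NaCl overlapped with one on control medium within or across the mutant lines. The log2 fold change of NaCl over control was 3.17 ± 0.21 in ago4-3 (SE; adjusted p = 2.36e-07 by edgeR) and 2.85 ± 0.23 in ago4-2 (adjusted p = 7.49e-07), that is 9.01-fold and 7.22-fold. Among the salt responses of all genes, ranked from the highest log2 fold change, AT3G28290 was 20th and AT3G28300 28th in ago4-3, and 57th and 24th in ago4-2. In Col-0 the pair had 8 and 6 counts on NaCl and 0 and 0 on control medium. Because all these genes were chosen for being near silent in Col-0, a test of salt there draws on the values used for the choice. No call is therefore given for them in Col-0. With most low counts even, the pair's counts there may also stand for fewer fragments. Whether salt changed any of these genes in Col-0 cannot be decided from such counts.

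The dirigent-like AT2G21100 responded less. In ago4-3 it averaged 19.4 ± 4.57 CPM on NaCl and 12.9 ± 1.20 CPM on control medium, and in ago4-2 52.5 ± 4.21 CPM on NaCl and 28.1 ± 4.77 CPM on control medium. The edgeR log2 fold change was 0.59 ± 0.17 in ago4-3 (adjusted p = 0.0235) and 0.91 ± 0.16 in ago4-2 (adjusted p = 0.000655). The call in ago4-3 rested on its libraries. It ended without ago4-3 NaCl replicate 1 (0.33, adjusted p = 0.279), without ago4-3 control replicate 1 (0.50, adjusted p = 0.142) and without ago4-3 control replicate 2 (0.69, adjusted p = 0.0505).

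The pseudogenes did not pass the test for salt. AT2G11410 had 21.8 ± 3.04 CPM on NaCl and 20.8 ± 2.44 CPM on control medium in ago4-3, and 3.41 ± 0.175 CPM on NaCl and 3.91 ± 1.42 CPM on control medium in ago4-2. Its log2 fold change had a 95% interval of −0.39 to 0.53 in ago4-3 (adjusted p = 0.859 by edgeR) and of −0.79 to 0.31 in ago4-2 (adjusted p = 0.509). AT4G01975 had 3.20 ± 1.32 CPM on NaCl and 3.10 ± 0.730 CPM on control medium in ago4-3, and 2.69 ± 0.199 CPM on NaCl and 2.30 ± 0.0572 CPM on control medium in ago4-2. Its intervals were −0.67 to 0.74 in ago4-3 (adjusted p = 0.961 by edgeR) and −0.50 to 0.95 in ago4-2 (adjusted p = 0.645). Changes within these intervals are not excluded.

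Whether salt acted unequally in the mutant lines was tested as the salt response of ago4-3 minus that of ago4-2, in which 0.817% of all genes were called, 0.648% with a higher response in ago4-3 and 0.169% with a lower one. None of the 5 passed by edgeR, at adjusted p of 0.452 to 0.913, and 0 passed at an unadjusted p under 0.05 or by DESeq2. The difference was 0.32 for the pair (95% interval −0.34 to 0.98), −0.32 for AT2G21100 (−0.83 to 0.19), 0.31 for AT2G11410 (−0.41 to 1.03) and −0.19 for AT4G01975 (−1.20 to 0.82), on the log2 scale.

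Seed storage and maturation transcripts moved with salt as well. Their summed level over the 4 markers was 1540 to 1660 CPM in ago4-3 on NaCl and 146 to 244 CPM on control medium, and 8970 to 10100 CPM in ago4-2 on NaCl and 1420 to 1530 CPM on control medium. All 4 were called higher on NaCl in both mutants by edgeR, CRA1, a cruciferin storage protein, by 3.82 ± 0.23 in ago4-3 (adjusted p = 5.49e-08) and 3.28 ± 0.22 in ago4-2 (adjusted p = 9.17e-08). In Col-0 the same sum was 625 to 949 CPM on NaCl and 142 to 180 CPM on control medium, and 3 of the 4 were called higher on NaCl, where 10.7% of all genes were called higher, 7.42% lower and 18.2% in either direction.

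Both markers of green tissue and the root gene SCR moved with salt in ago4-3 and in Col-0. The green tissue genes LHCB1.3 and RBCS1A, of the light-harvesting complex and of Rubisco, were called higher on NaCl in ago4-3 by edgeR, by 1.41 ± 0.11 (adjusted p = 5.7e-07) and 0.68 ± 0.17 (adjusted p = 0.00926). In ago4-2 neither passed (0.20 and 0.24, adjusted p = 0.183 and 0.293 by edgeR). Their sum was 4500 to 5230 CPM in ago4-3 on NaCl and 2850 to 3150 CPM on control medium, 3780 to 4090 CPM in ago4-2 on NaCl and 3080 to 3590 CPM on control medium, and 4410 to 5410 CPM in Col-0 on NaCl and 2220 to 2540 CPM on control medium. LHCB1.3 was also called for the difference of salt responses, at 1.21 ± 0.16 (adjusted p = 0.00182 by edgeR). The root gene SCR was called lower on NaCl in ago4-3 (−0.35 ± 0.10, adjusted p = 0.0255 by edgeR) and did not pass in ago4-2 (−0.20, adjusted p = 0.152). The root gene SHR passed in neither mutant (−0.22 in ago4-3 and −0.11 in ago4-2, adjusted p = 0.479 and 0.706 by edgeR). In Col-0, LHCB1.3 was called higher on NaCl by 2.16 ± 0.11 (adjusted p = 5.29e-08 by edgeR) and RBCS1A by 1.02 ± 0.17 (adjusted p = 0.000746). SCR was called lower there (−0.38 ± 0.10, adjusted p = 0.0193 by edgeR). The part of the seed, green tissue and root transcripts in the salt response of the pair and of AT2G21100 was not tested.

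The mutant lines were then compared with each other, which the choice of the genes did not use beyond their presence in both. Of the 5 genes, 4 were called between ago4-3 and ago4-2 on NaCl, 3 of them higher and 1 lower in ago4-3, where 9.89% of all genes were called higher, 11.0% lower and 20.9% in either direction. The same 4 were called on control medium in the same directions, where 3.79% of all genes were called higher, 5.21% lower and 9.00% in either direction. Both copies of the pair are among the 4 and are 1 measurement. With the pair summed, 3 were called in each condition, AT2G11410 and the pair higher and AT2G21100 lower in ago4-3. The comparisons on NaCl and on control medium share no library.

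AT2G11410 differed most, with a log2 fold change of ago4-3 over ago4-2 of 2.67 ± 0.24 on NaCl (SE; adjusted p = 4.08e-06 by edgeR) and 2.36 ± 0.24 on control medium (adjusted p = 2.42e-05), or 6.36-fold and 5.14-fold. The AT14A pair was higher in ago4-3 by 1.90 ± 0.19 on NaCl (adjusted p = 1.24e-05) and 1.58 ± 0.24 on control medium (adjusted p = 0.000655), or 3.73-fold and 2.99-fold. AT2G21100 ran the other way, at −1.44 ± 0.17 on NaCl (adjusted p = 2.61e-05) and −1.12 ± 0.17 on control medium (adjusted p = 0.000587), which is 0.368 and 0.459 of the ago4-2 level. AT4G01975 did not pass, at 0.23 on NaCl (95% interval −0.48 to 0.93; adjusted p = 0.669 by edgeR) and 0.42 on control medium (−0.31 to 1.14; adjusted p = 0.544).

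For AT3G28290 taken alone, the call on control medium was lost without ago4-2 control replicate 2 (0.74, adjusted p = 0.137) and without ago4-3 control replicate 2 (1.03, adjusted p = 0.109), and with only the groups compared in the fit (1.25, adjusted p = 0.147). The summed pair stayed called without each library in turn, at 1.11 to 2.04 and adjusted p up to 0.0087, and with only the groups compared in the fit, at 1.56 (adjusted p = 0.0306). The 4 seed markers were lower in ago4-3 than in ago4-2 in both conditions, with CRA1 at −2.30 ± 0.21 on NaCl and −2.84 ± 0.22 on control medium (adjusted p = 2.87e-06 and 7.31e-07 by edgeR). They thus moved in the direction of AT2G21100 and against the pair and AT2G11410. The green tissue gene LHCB1.3 moved with the pair and AT2G11410 on NaCl, higher in ago4-3 by 1.42 ± 0.11 (adjusted p = 6.6e-07 by edgeR), and did not pass on control medium (0.20, adjusted p = 0.324). The part of either set of transcripts in these differences was not tested.

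**Figure D3:**
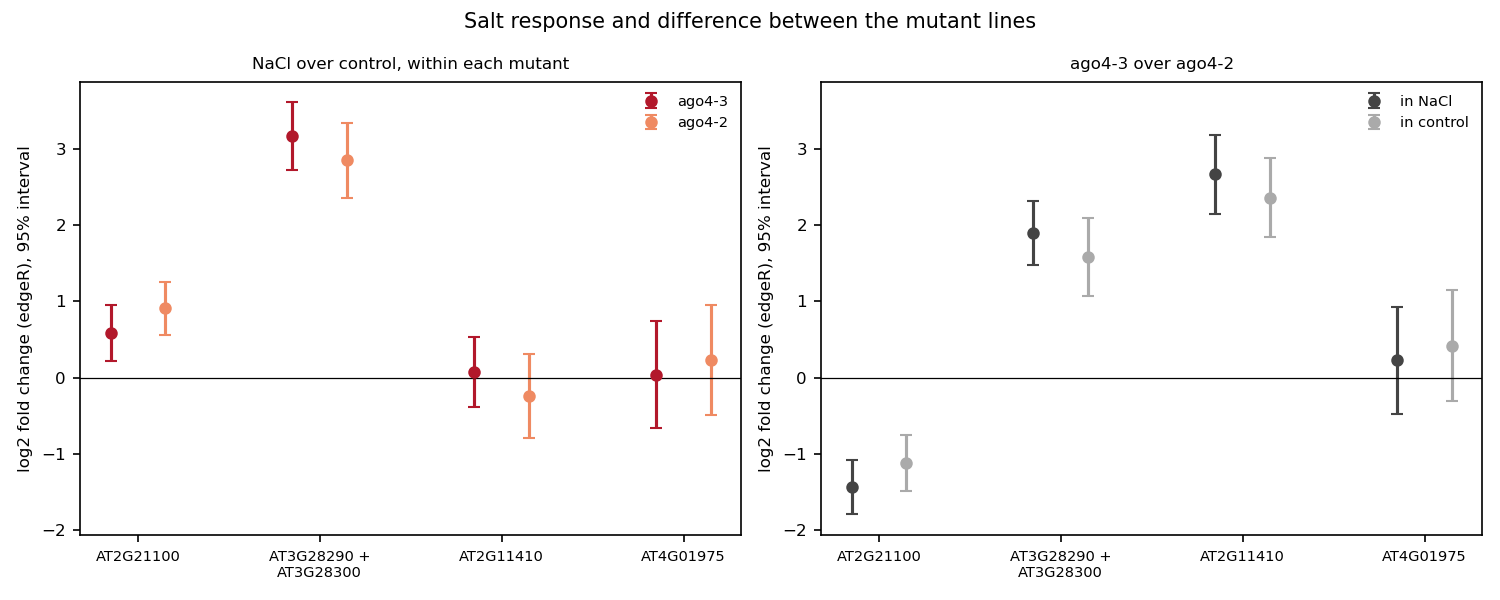
Log2 fold change by edgeR with its 95% interval (vertical axis) for each gene, the AT14A pair summed, of NaCl over control within ago4-3 and ago4-2 (left) and of ago4-3 over ago4-2 on NaCl and on control medium (right). The pair lies at 3.17 and 2.85 for salt, and AT2G11410 at 2.67 and 2.36 between the lines, while AT4G01975 crosses 0 in all 4.

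The levels of the mutants can be ordered within each gene. For AT2G21100 the order ran from ago4-2 on NaCl through ago4-2 on control medium and ago4-3 on NaCl to ago4-3 on control medium, with neighbouring groups not overlapping. For the pair it ran from ago4-3 on NaCl through ago4-2 on NaCl and ago4-3 on control medium to ago4-2 on control medium, again without overlap. AT2G11410 had 2 levels, 1 for each line, with overlap between salt and control within a line, and the groups of AT4G01975 lay within the spread of ago4-3 on NaCl.

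To see whether the pattern spread to neighbouring genes, the 5 nearest measured genes on each side of each member were examined, 40 genes besides the members. None of these 40 had its lowest mutant library over 4 times its highest Col-0 library, or its highest mutant library under 1/4 of its lowest Col-0 library. Between ago4-3 and Col-0, 4 of the 40 were called by edgeR on NaCl (2 higher, 2 lower), where 1.19% of all genes were called, 0.541% higher and 0.648% lower. On control medium it was 2 (1 higher, 1 lower), where 1.66% were called, 0.851% higher and 0.806% lower. All these calls for ago4-3 lay around the AT14A pair, and none around the other members. Besides AT3G28310 and AT3G28220, described below, they were PMZ (−2.93, adjusted p = 0.0242 by edgeR) and ABCB15 (0.43, adjusted p = 0.03), both on NaCl. These 2 are named because they were called, and ago4-2 on NaCl had both calls in the same directions. For ago4-2, 14 of the 40 were called on NaCl (3 higher, 11 lower), against 29.3% of all genes, 14.9% higher and 14.4% lower. On control medium it was 6 (2 higher, 4 lower), against 8.44% of all genes, 5.22% higher and 3.22% lower.

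The nearest measured gene on each side of AT2G21100 overlapped between mutants and Col-0. AT2G21090, a pentatricopeptide repeat gene that ends 0.5 kb away, ranged from 27.4 to 41.4 CPM in the mutants and from 28.2 to 33.5 CPM in Col-0. AT2G21120, a putative magnesium transporter gene 2.3 kb away on the other side, ranged from 12.6 to 18.7 CPM in the mutants and from 14.6 to 19.0 CPM in Col-0. Neither was called in any comparison with Col-0. Among the other 8, AT2G21080, 2.7 kb away, was lower in every mutant library (1.03 to 1.87 CPM) than in every Col-0 library (1.96 to 2.95 CPM) but passed no test (adjusted p of 0.11 to 0.498 by edgeR). LAX2, 11.5 kb away, was called higher in ago4-2 on NaCl (0.53, adjusted p = 0.0022 by edgeR). Both are named because their values stood out.

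The nearest measured genes of the pseudogene AT2G11410 lay farther off. Of the 20 annotated features within 50 kb of it, 17 (85.0%) were pseudogenes, against 10.3% in the genome. AT2G11240, itself a pseudogene, 60.2 kb before it, had 33.3 and 30.8 CPM in ago4-3 on NaCl and 45.4 and 27.0 CPM on control medium, whereas ago4-2 had 0.346 and 0 CPM on NaCl and 0 and 0 CPM on control medium. Col-0 had 51.3 and 31.4 CPM on NaCl and 52.3 and 46.0 CPM on control medium. That gene was called lower in ago4-2 in both conditions (adjusted p = 1.02e-07 and 1.22e-07 by edgeR). A search of all genes, added after these values were seen, asked which were under 1 CPM in every library of a mutant line and at least 8 times higher in every other library. It found 0 such genes for ago4-3 and 17 for ago4-2, 9 of them on chromosome 2, of which 5 lay within 1 Mb of AT2G11410. None lay within 1 Mb of AT2G21100 or AT4G01975, and 1 lay within 1 Mb of the AT14A pair. For AT2G11410, an effect of the ago4-2 allele and another difference of that line in this stretch cannot be told apart. More widely, each allele was read in a single line. For all 5 genes, in ago4-3 as in ago4-2, the allele and other differences of its line thus cannot be told apart.

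CRCK3, a receptor-like kinase gene 70.6 kb after AT2G11410, ranged from 22.3 to 28.4 CPM in the mutants and from 22.5 to 25.3 CPM in Col-0.

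Around the AT14A pair, the nearest measured genes on both sides differed from Col-0 in all 4 comparisons. AT3G28310, a short DUF677 gene 9.3 kb after AT3G28300, had 51 and 67 counts in ago4-3 on NaCl, 33 and 30 on control medium, 14 and 39 in ago4-2 on NaCl and 16 and 25 on control medium, against 0 and 6 counts in Col-0 on NaCl and 4 and 2 on control medium. Its log2 fold change over Col-0 was 4.72 ± 0.65 for ago4-3 on NaCl (adjusted p = 0.000936 by edgeR) and 4.03 ± 0.69 on control medium (adjusted p = 0.00592). For ago4-2 it was 3.43 ± 0.70 on NaCl (adjusted p = 0.0022) and 3.48 ± 0.73 on control medium (adjusted p = 0.00758). The calls on control medium ended without Col-0 control replicate 1 (adjusted p = 0.146 for ago4-3 and 0.118 for ago4-2) or replicate 2 (0.0611 and 0.0501), and that for ago4-3 also without ago4-3 control replicate 2 (0.0533).

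AT3G28220, a TRAF-like gene 20.7 kb before AT3G28290, ran opposite to the pair. It had 6 and 22 counts in ago4-3 on NaCl, 8 and 0 on control medium, 0 and 2 in ago4-2 on NaCl and 4 and 4 on control medium, against 90 and 112 counts in Col-0 on NaCl and 104 and 48 on control medium. All Col-0 libraries, at 1.99 CPM and above, were over all mutant libraries, at 0.755 CPM and below. Its log2 fold change over Col-0 was −2.40 for ago4-3 on NaCl (adjusted p = 0.0346 by edgeR) and −3.56 on control medium (adjusted p = 0.00917), and −6.12 for ago4-2 on NaCl (adjusted p = 5.26e-05) and −3.43 on control medium (adjusted p = 0.00416).

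**Figure D4:**
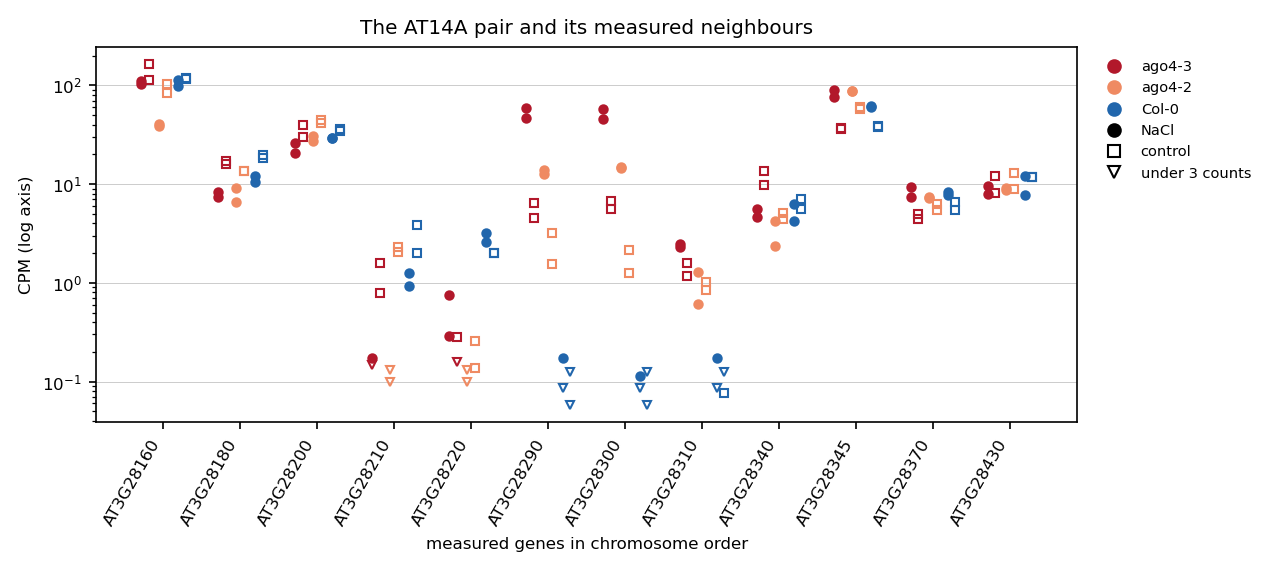
CPM (log axis) of the AT14A pair and of the 5 nearest measured genes on each side, in chromosome order (horizontal axis, not to scale), 1 point per library; colours give the genotype, filled circles NaCl, open squares control medium, and open triangles libraries under 3 counts drawn at the CPM of 3 counts. AT3G28290 and AT3G28300 and, at 0.606 CPM and above, AT3G28310 are higher in all mutant libraries than in Col-0, while AT3G28220 is lower in all of them.

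The nearest measured gene on each side of AT4G01975 overlapped between mutants and Col-0, and 2 of its 10 neighbours were called, in ago4-2 on NaCl. AT4G01960, 5.3 kb away, ranged from 7.73 to 10.3 CPM in the mutants and from 8.36 to 11.1 CPM in Col-0. AT4G01990, a tetratricopeptide repeat gene 8.7 kb away on the other side, ranged from 13.8 to 21.6 CPM in the mutants and from 14.4 to 17.0 CPM in Col-0.

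Among the measured relatives of the protein-coding members, only AT3G28310 was called higher in the mutants than in Col-0. Of 25 dirigent-like relatives by RefSeq product, 7 were measured, and edgeR called none of them against Col-0 in either mutant or condition. Of all genes, 1.19% were called for ago4-3 on NaCl and 1.66% on control medium, and 29.3% and 8.44% for ago4-2. So few measured genes say little of the families as a whole. AT1G55210, the relative called for salt, was lower on NaCl by −0.70 ± 0.16 in ago4-3 (adjusted p = 0.00483) and −1.10 ± 0.16 in ago4-2 (adjusted p = 0.000114), where AT2G21100 was higher. The call in ago4-3 ended without ago4-3 NaCl replicate 1 (adjusted p = 0.0755) or ago4-3 control replicate 2 (0.083). Of 13 DUF677 relatives, 5 were measured. Besides AT3G28310, AT3G19330 was called lower in ago4-2 than in Col-0 on NaCl (−0.99 ± 0.24, adjusted p = 0.00742 by edgeR), a call that ended without either ago4-2 NaCl library (adjusted p = 0.0538 and 0.0513) or Col-0 NaCl replicate 1 (0.0734). For salt, edgeR called 0 of the 5 in ago4-3, where 23.0% of all genes were called, and 2 in ago4-2, where 35.1% were. Both were lower on NaCl, AT3G19250 at −0.56 ± 0.16 (adjusted p = 0.015) and AT3G19330 at −1.04 ± 0.25 (adjusted p = 0.00472). These ran opposite to the pair, and the first was lost without ago4-2 NaCl replicate 2 (adjusted p = 0.193) or control replicate 1 (0.0545), the other without ago4-2 control replicate 2 (0.0757).

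The pathway's own genes were followed in a list of 29, of which 28 were measured. Between ago4-3 and Col-0, edgeR called 0 higher and 2 lower in each condition, AGO4 and ROS1, where 1.19% of all genes were called on NaCl and 1.66% on control medium. ROS1, the DNA demethylase whose transcript depends on methylation of its own promoter, had a log2 fold change of −3.42 ± 0.24 on NaCl (adjusted p = 6.98e-07) and −1.88 ± 0.22 on control medium (adjusted p = 0.000244) in ago4-3. Its level was 0.766 CPM in ago4-3 on NaCl, 5.34 CPM in ago4-2 and 8.21 CPM in Col-0, and on control medium 1.39 CPM in ago4-3, 4.80 CPM in ago4-2 and 5.10 CPM in Col-0. The median log2 fold change of the list in ago4-3 was −0.01 on NaCl and −0.07 on control medium, against −0.01 and −0.01 over all genes.

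Between ago4-2 and Col-0, 7 of the 28 pathway genes were called higher and 6 lower on NaCl, where 29.3% of all genes were called, and 3 higher and 3 lower on control medium, where 8.44% were. SUVH9, a histone-methyltransferase-like protein that recruits RNA polymerase V, was lower by −0.85 ± 0.11 on NaCl (adjusted p = 7.39e-05 by edgeR) and −1.14 ± 0.12 on control medium (adjusted p = 2.15e-05). It lies 281.7 kb from AT4G12870, which was close to silent in ago4-2 only. For ROS1 the nearest such gene lay 10830.2 kb away, and CMT3 had none on its chromosome. A link of these distances to the levels was not tested. The CHG methyltransferase CMT3 was lower by −0.50 ± 0.12 on NaCl (adjusted p = 0.00694) and −0.91 ± 0.12 on control medium (adjusted p = 0.000227), and its call on NaCl ended without ago4-2 NaCl replicate 2 (0.057) or Col-0 NaCl replicate 1 (0.0897). IDN2, an RNA-binding partner of the pathway, was higher on NaCl (0.49 ± 0.10, adjusted p = 0.00275). ROS1 was called lower in ago4-2 on NaCl (−0.62 ± 0.19, adjusted p = 0.0253), a call lost without either ago4-2 library or Col-0 NaCl replicate 1. The median of the list was 0.15 on NaCl and −0.06 on control medium, against −0.02 and 0.01 over all genes.

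For salt within the mutants, 4 of the 28 pathway genes were called higher and 4 lower in ago4-3, where 23.0% of all genes were called, and 6 higher and 1 lower in ago4-2, where 35.1% were. The methyltransferase DRM2 was among the higher in both, by 0.44 ± 0.14 in ago4-3 (adjusted p = 0.0332 by edgeR) and 0.79 ± 0.14 in ago4-2 (adjusted p = 0.000487), and so was IDN2, by 0.37 ± 0.11 (adjusted p = 0.0211) and 0.80 ± 0.11 (adjusted p = 4.52e-05). In ago4-3 the call of DRM2 ended without NaCl replicate 1 (adjusted p = 0.197), control replicate 1 (0.0921) or control replicate 2 (0.123), and that of IDN2 without NaCl replicate 2 (0.138) or control replicate 1 (0.158). Of the 5 listed loci known to be silenced by DNA methylation, 1 was measured, the retroposon SADHU1-1 (AT2G10410), at 181 CPM in ago4-3, 0.173 CPM in ago4-2 and 150 CPM in Col-0 on NaCl, and at 131 CPM in ago4-3, 0.200 CPM in ago4-2 and 128 CPM in Col-0 on control medium. It was thus highly read in Col-0, where the 5 genes described here had 0 to 10 counts in a library. In ago4-2, SADHU1-1 was called lower than in Col-0, by −9.91 ± 0.34 on NaCl (adjusted p = 6.88e-11 by edgeR) and −9.14 ± 0.34 on control medium (adjusted p = 1.33e-10). It is among the 17 genes close to silent in ago4-2 only and lies within 1 Mb of AT2G11410.

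A numeric version of the choice was then applied to all genes, with every Col-0 library under 1 CPM and every mutant library at least 8 times the highest Col-0 library (or 3 counts, if more). Of the 94 genes with all Col-0 libraries under 1 CPM, 6 met it, the 5 members and the pseudogene AT5G35935 on chromosome 5. The limits were set with the members known, so it carries no weight that the members met them. The annotation holds 37899 nuclear features, and genes with few reads in every group may be missing from the deposited counts. The 94 may therefore hold mainly genes that are read in a mutant group. AT5G35935 had 22.5 and 19.4 CPM in ago4-3 on NaCl, 22.5 and 16.9 CPM on control medium, 9.87 and 8.17 CPM in ago4-2 on NaCl and 5.23 and 9.60 CPM on control medium. Col-0 had 0.173 and 0.115 CPM on NaCl and 0.230 and 0.166 CPM on control medium. Another 13 genes met the criterion in ago4-3 only and 23 in ago4-2 only, and 0 genes met its mirror image, under 1 CPM in every mutant library and 8 times higher in every Col-0 library. Of the 6 genes, 3 were annotated pseudogenes. Of all 17751 genes measured 113 were, not counting those annotated as transcribed pseudogenes. The share among the 94 genes low in Col-0 was not counted, so no enrichment can be read from these numbers. Ratios of lowest mutant to highest Col-0 library ran from 62.8 for AT2G21100 to 9.01 for AT3G28290, which stood nearest to the limit of 8.

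The genes most like each member over the 12 libraries were found by Pearson r of log2(CPM + 0.5), a description in which all points share the contrast of mutants with Col-0. AT2G21100 was most like AT5G13520, a peptidase M1 gene (r = 0.986), and the MADS-box gene AGL102 (0.955). AT4G01975 was most like AGL102 (0.990) and AT5G35935 (0.970). AGL102 had 20.2 to 26.4 CPM in ago4-3, 18.4 to 24.5 CPM in ago4-2 and 5.34 to 7.06 CPM in Col-0, so it was lower but not silent in Col-0. The AT14A pair was most like AT3G58060, a cation efflux gene (r = 0.939 with AT3G28290 and 0.948 with AT3G28300), then AT4G02360 (0.923 with AT3G28290) and YLS5 (0.923 with AT3G28300).

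AT2G11410 was most like ESM1, a gene of glucosinolate breakdown (r = 0.981), and the pseudogene AT4G08093 (0.978). ESM1 had 773 and 741 CPM in ago4-3 on NaCl, 382 and 441 CPM on control medium, 96.1 and 104 CPM in ago4-2 on NaCl and 71.0 and 50.5 CPM on control medium, against 0.751 and 1.04 CPM in Col-0 on NaCl and 0.499 and 0.497 CPM on control medium. AT4G08093 had 7.56 and 10.9 CPM in ago4-3 on NaCl and control medium, 1.16 and 1.82 CPM in ago4-2, and at most 0.0828 CPM in a Col-0 library. Both had the steps of AT2G11410, from ago4-3 over ago4-2 to Col-0, and ESM1 missed the numeric criterion by a Col-0 library at 1.04 CPM.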

How the data were processed

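Polyadenylated RNA of 12 libraries was analysed from 9 deposited comparison tables, each library being in 3 of them with 0 disagreements. Per the file headers, the authors deposited whole-number counts by gene. The tables also hold the authors' log2 fold changes and p-values, deposited as such and left aside, and 36 columns of per-sample values that were not used. The submitters' processing notes name build TAIR10 and the tools edgeR, DESeq, Picard and SAMtools, while no aligner is named in the sources used here. Complete counts were found for 17751 of 18542 genes, and the other 791 were missing from a table. Even numbers made up 72.35% to 87.65% of the counts of 1 to 20 in a library, so read mates may have been counted separately and counting intervals may be too narrow.

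edgeR 4.0.16 (R 4.3.3) was fitted with TMM scaling, quasi-likelihood dispersion and 1 coefficient for each of the 6 groups; its filter removed 0 genes, and DESeq2 1.42.0 was an alternative. Tests were two-sided and adjusted by Benjamini-Hochberg over 17751 genes. Only the contrast of salt in ago4-2 was also run on simulated data. Changes were planted there in genes read in Col-0 on control medium, so genes near 0 in Col-0 were not covered. Positions, product names and sequences are from RefSeq TAIR10.1, and copies were found with blastn 2.17.0. The files hold no coordinates. The members, gene lists and tests were chosen with earlier results of these data known. Genes were named by rule: the members, AGO4, the nearest measured gene on each side, the 2 most alike genes per member, genes passing the numeric criterion, and up to 6 called genes per list by smallest adjusted p. The fit did not pair libraries by their number. Alternatives were other scaling, filters, halved counts, the pair summed, fewer groups, a replicate block and each library left out.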

Additional observations from a re-analysis of the deposited data

How the results depend on the processing

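Of 319 alternatives for 25 results of the single genes, 301 kept direction and call, 6 ended a call and 12 turned a direction. Of 39 for the summed pair, 38 kept both, and the further alternatives for that sum were added after seeing the data. Summing the pair turned the difference of salt responses of AT3G28300 to 0.32. All the turned directions belonged to results that were not called. The single-library omissions gave the following ranges of log2 values. Salt in ago4-3 ran from −0.082 to 0.207 for AT2G11410 and from −0.442 to 0.427 for AT4G01975, and salt in ago4-2 from −0.525 to 0.234 for AT2G11410. The contrast of ago4-3 with ago4-2 on NaCl ran from −0.253 to 0.628 for AT4G01975. The difference of salt responses ran from −0.168 to 0.584 for AT2G11410, −0.497 to 0.272 for AT3G28300, −0.669 to 0.209 for AT4G01975 and −0.144 to 0.79 for the pair. The cause was not tested.

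Counts of genes called over the whole table moved more. With each library left out, salt called 2128 to 3113 genes in ago4-3 (4089 with all libraries), 3916 to 5880 in ago4-2 (6238) and 1390 to 2441 in Col-0 (3222). The contrast of ago4-3 with ago4-2 called 1867 to 2286 on NaCl (3709) and 879 to 1661 on control medium (1597), and the difference of responses 41 to 420 (145). Against Col-0, ago4-3 called 87 to 149 on NaCl (211) and 92 to 306 on control medium (294), and ago4-2 called 2804 to 4223 on NaCl (5209) and 533 to 2420 on control medium (1498). Fits on only the groups compared called 657 between ago4-3 and ago4-2 on control medium, 82 for the difference, and on control medium 586 for ago4-3 and 833 for ago4-2 against Col-0. DESeq2 called 344 for the difference, and for ago4-3 against Col-0 348 on NaCl and 465 on control medium. Part of these shifts follows from fewer libraries in a fit.

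The deviations of same-numbered libraries correlated at −0.437 to 0.257 between groups, so pairing by replicate number was neither shown nor excluded. Even numbers among counts of 1 to 20 were least frequent in replicate 2 of each control group. Their share there was 76.45% in ago4-3, 72.35% in ago4-2 and 74.8% in Col-0, against 79.59% to 87.65% in the other libraries. This trait falls on control libraries only, so it touches the salt contrasts, and its effect on them was not tested. With the replicate block the pair's salt response was 3.17 in ago4-3 and 2.85 in ago4-2, the block changed no call of the 5 genes, and it called 3755 genes for salt in ago4-3 and 5923 in ago4-2. With 2 libraries per group and Col-0 counts of 0 to 10, the size of the step over Col-0 is poorly known. Salt effects on both pseudogenes within the intervals given are not excluded.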
